A study of Mus musculus with 6 samples.

Results

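The genes described here are 9 that sense, store or move iron in the liver: Hamp, Bmp6, Hfe, Tfr2, Tfrc, Slc39a14, Slc40a1, Fth1 and Ftl1. They were found by gene name among 56534 genes and loci, and 9 of 9 were present. Livers of C57BL/6 mice with CD36, a fatty acid receptor and transporter, deleted (LKO, 3 libraries) were compared with livers of wild-type C57BL/6 mice (CON, 3 libraries). The series title calls the deletion hepatocyte-specific and the genotype label of the same libraries reads CD36-/-. The sources used here do not give the Cre driver or the sex and age of the animals, and other liver cells can keep CD36 in a hepatocyte deletion. All animals, CON included, ate a diet with 60% of its energy as fat for 16 weeks. Whether each library is a separate animal is not stated in the labels. A p-value here therefore measures the spread among libraries, which may be technical.

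Hepatocytes secrete hepcidin, the product of Hamp, which binds the iron exporter ferroportin (Slc40a1) and causes its degradation, so that iron stays in macrophages and enterocytes. Sinusoidal endothelial cells release BMP6 when liver iron is high, and a membrane complex that includes HFE and transferrin receptor 2 adds the signal of iron-loaded transferrin. Inside cells, iron regulatory proteins bind stem-loops called iron-responsive elements: binding blocks translation of ferritin and ferroportin mRNA and protects the mRNA of transferrin receptor 1 (Tfrc) from decay. The level of an mRNA therefore does not give the level of its protein for several of these genes.

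The elements found in the members are shown because this control acts through such stem-loops. The search of GENCODE M21 protein-coding transcripts (GRCm38), on the transcript strand, was for an unpaired C, 5 bases, the loop CAGTGN and 5 bases that pair with the first 5, G-T pairs allowed. It found the element in a UTR of 4 of the 9 members, Fth1, Ftl1, Slc40a1 and Tfrc, of 0 of 80 other genes in the iron lists used here, and of 159 of 21901 protein-coding genes (0.726%). Capitals mark the unpaired C and the loop, in windows of 28 bases. No match says only that this form is not in the annotated UTRs.
Fth1, 5′ UTR: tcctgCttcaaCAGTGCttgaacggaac
Ftl1, 5′ UTR: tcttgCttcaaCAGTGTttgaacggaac
Slc40a1, 5′ UTR: aacttCagctaCAGTGTtagctaagttt
Tfrc, 3′ UTR, element 1: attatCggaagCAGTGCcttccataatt
Tfrc, 3′ UTR, element 2: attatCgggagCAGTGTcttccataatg
Tfrc, 3′ UTR, element 3: tatatCggagaCAGTGAtctccatatgt
Tfrc, 3′ UTR, element 4: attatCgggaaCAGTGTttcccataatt
The windows of Fth1 and Ftl1 differed at C3T and C17T, counted from 1 at the 5′ end of the Fth1 window. The 4 windows of Tfrc began at bases 3316, 3695, 3760 and 3807 of its 4890-base transcript.

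The second sequence shown is the Hamp promoter, through which BMP and IL-6 signals are known to act, beside that of Hamp2, the neighbouring hepcidin copy of the mouse. Promoters of 7 of the 9 members were in the RefSeq table (GRCm38.p6), and Slc40a1 and Slc39a14 were the others. Windows of 60 bases are given from the minus strand, with capitals for GGCGCC (a BMP-responsive motif) and TTCNNNGAA (a STAT motif). Both motifs read the same on either strand and do not overlap here.
Hamp, chr7:30944097-30944156: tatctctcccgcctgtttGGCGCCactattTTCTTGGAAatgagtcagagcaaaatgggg
Hamp2, chr7:30924246-30924305: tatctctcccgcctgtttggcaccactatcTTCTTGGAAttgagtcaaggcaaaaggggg
The windows were identical at 54 of 60 bases. Within the 6 letters of the BMP motif they differed at G4A, counted from 1 at the motif's 5′ end in Hamp, so these letters of Hamp2 are no match. Of 32851 promoters of 300 bases in the table, 11.9% held GGCGCC, 8.30% held TTCNNNGAA and 0.645% held both. Among the other members, 1 of the 2 Tfrc promoters held GGCGCC and none held TTCNNNGAA. These matches describe letters and not binding.

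Values of the libraries are given in the order 1, 2, 3 throughout. The deleted gene, Cd36, was at 2.73, 3.70 and 10.22 FPKM in LKO 1 to 3, against 61.95, 26.49 and 19.66 FPKM in CON 1 to 3. FPKM are fragments per kilobase of gene scaled to the mapped fragments of the library, and the depth in reads is unknown. Hepatocyte markers were high in all libraries, with Alb at 16410 to 26682 FPKM in LKO and 24911 to 45751 FPKM in CON. Across all genes, LKO 3 stood apart from LKO 1 and LKO 2: both of these lay below every CON library while LKO 3 did not for 22.3% of 11104 tested genes. The deviation of a library from the mean over the 6 libraries correlated with gene length at Spearman rho -0.33, -0.30 and 0.21 in LKO 1 to 3. It was 0.27, 0.10 and 0.29 in CON 1 to 3 (across genes, which are not independent replicates). Over all genes the log2 fold change had a median of -0.23, and of 0.01 after median-ratio scaling of the libraries, so single values are to be read against these medians. Transcripts of the Mup family of urinary proteins held 29.4%, 28.9% and 23.9% of the summed FPKM in LKO 1 to 3, against 6.22%, 15.6% and 22.1% in CON 1 to 3. Mitochondrial genes held 10.1% in LKO 2 and 3.88% to 6.18% in the other libraries. The part of these shares in the shift was not tested.

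The members spanned a wide range of levels. Ftl1, the ferritin light chain, was the highest, at 4064 to 6321 FPKM over the 6 libraries, and ranked 39 in LKO and 33 in CON among all genes. It was followed by the ferritin heavy chain Fth1 (1799 to 2441 FPKM), Hamp (568 to 1826), Tfr2 (178 to 255), Slc39a14 (20.1 to 51.3), Slc40a1 (9.45 to 40.6), Hfe (9.37 to 19.8), Tfrc (2.20 to 4.42) and Bmp6 (0.32 to 1.43). The ranges of Fth1 and Hamp, of Slc39a14 and Slc40a1 and of Slc40a1 and Hfe overlapped across libraries. Read within a library, Fth1 was above Hamp in each of the 6. Slc40a1 was above Slc39a14 only in CON 1, and Hfe was above Slc40a1 only in LKO 1. By their ranges, the transcript for the second transferrin receptor was also above that of the first in each of the 6 libraries. Levels between genes depend on the length used: the length listed for 9 of 9 members was that of the longest GENCODE M21 transcript, and for Fth1, Slc40a1 and Slc39a14 that transcript retains an intron. For Fth1 it has 2062 bases, against 1494 for its longest coding transcript.

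**Figure D1:**
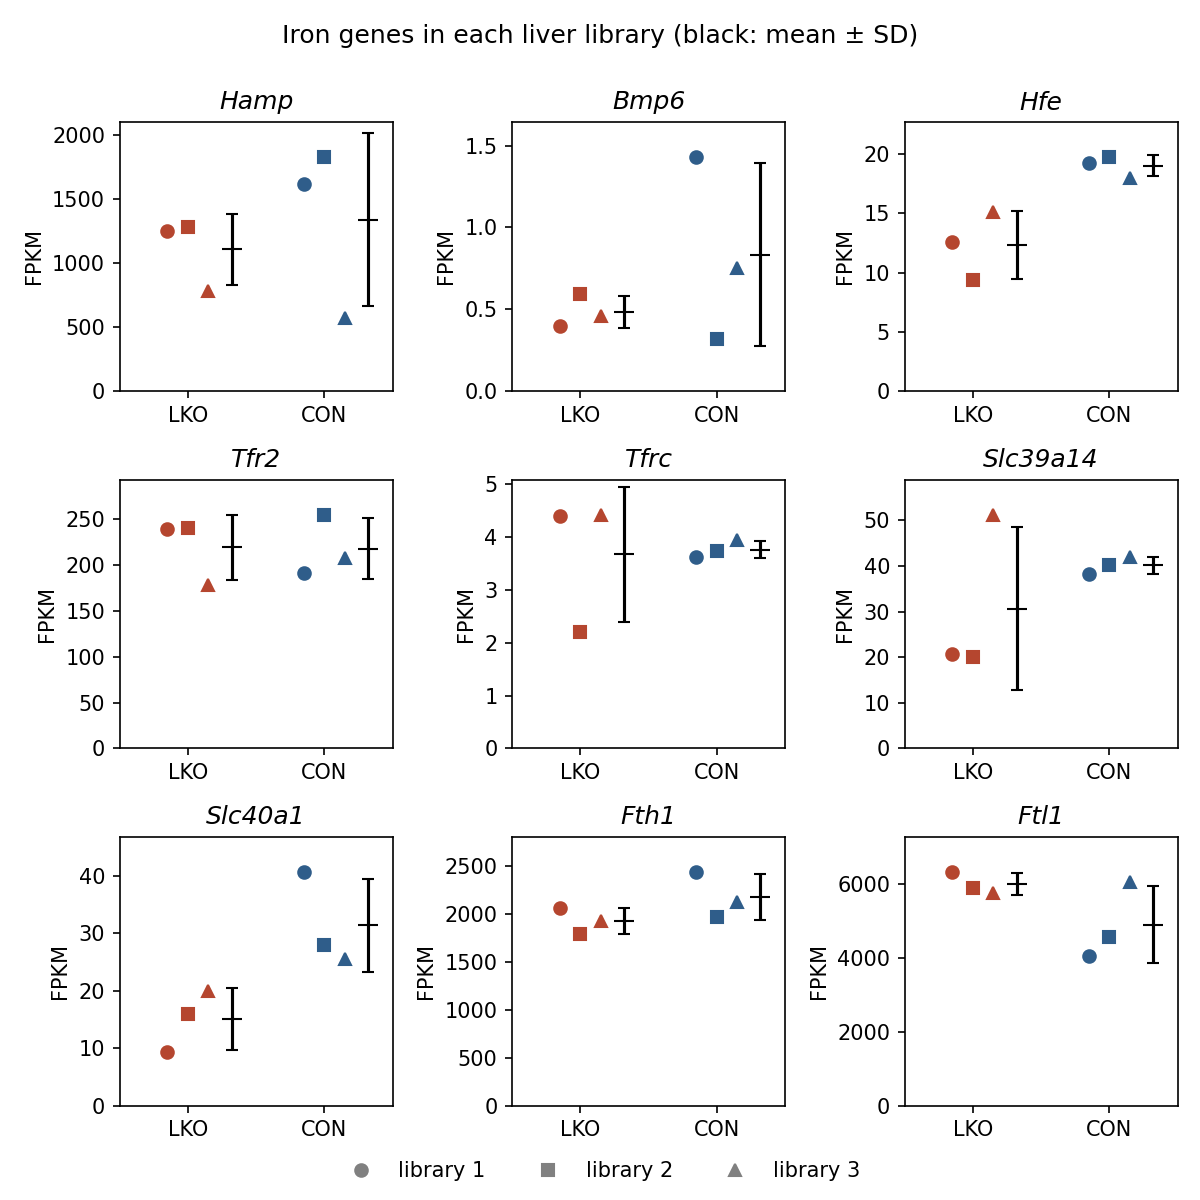
FPKM of the 9 iron genes (y axes, linear from 0) in the LKO and CON libraries, 1 point per library with the library number as the symbol, and the mean ± SD of each group (n = 3) in black. Slc40a1 and Hfe lie lower in each LKO library than in any CON library, and Slc39a14 is low in LKO 1 and LKO 2 at 20.6 and 20.1 FPKM but at 51.3 FPKM in LKO 3.

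None of the 8 members whose mean FPKM reached 1 passed an adjusted p of 0.05 (limma, adjusted by Benjamini-Hochberg over 11104 genes). Over all genes 1 gene passed lower (0.00901%), the predicted gene Gm44002 (log2 fold change -2.45), and 0 passed higher (0%). At an unadjusted p under 0.05, 2 of the 8 were lower in LKO, Slc40a1 and Hfe, against 18.9% of all genes, and 0 were higher, against 3.25%. For the same 2 members the LKO libraries were all below the CON libraries, against 24.3% of all genes, and above for 0, against 3.92%. These shares of 8 genes are near the background and are not a result about the members. Of the 8, 6 had a negative log2 fold change, against 71.6% of all genes, and 3 had one after median-ratio scaling, against 48.9%. Under that scaling, 1 of the 8 (Slc40a1) was lower at an unadjusted p under 0.05, against 7.96% of all genes, and 0 were higher, against 10.2%. The median of the 8 was -0.16, beside -0.23 for all genes, and 0.14 beside 0.01 after median-ratio scaling. LKO 1 and LKO 2, but not LKO 3, lay below every CON library for 1 of the 8, Slc39a14, against 22.3% of all genes. Without LKO 3, Slc40a1, Hfe and Slc39a14 passed lower, 3 of the 8, against 19% of all genes, and 0 passed higher, against 4.6%.

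Slc40a1 encodes ferroportin, the only known iron exporter of mammalian cells, which hepatocytes and Kupffer cells use. It was at 9.45, 15.91 and 20.04 FPKM in LKO 1 to 3, against 40.63, 27.90 and 25.58 FPKM in CON 1 to 3. The groups did not overlap, LKO 1 was the lowest library and CON 1 the highest. The mean was 15.1 ± 5.34 FPKM in LKO and 31.4 ± 8.10 FPKM in CON (SD, n = 3 each), so the CON mean was 2.07-fold that of LKO. The log2 fold change on the log2(FPKM + 1) scale was -1.03 (SE 0.30, 95% interval -1.72 to -0.35, limma adjusted p = 0.179). It was -0.75 after median-ratio scaling (95% interval -1.43 to -0.068) and -0.73 with the length trend removed.

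Without LKO 3 the adjusted p of Slc40a1 was 0.0282, where 19% of all genes passed lower and 4.6% higher. Over all alternatives its adjusted p ranged from 0.0282 to 0.486. Kupffer cell markers, 10 of 10 tested and none at 0, summed to 180, 353 and 298 FPKM in LKO 1 to 3, against 295, 315 and 223 FPKM in CON 1 to 3. LKO 1 was lowest for this sum and for Slc40a1, whereas CON 1, highest for Slc40a1, was not highest for the sum. Abundant markers weigh most in a sum. Adgre1 was at 0.86, 1.90 and 4.16 FPKM in LKO 1 to 3, against 6.24, 5.62 and 3.70 in CON 1 to 3. This marker had the smallest unadjusted p of the 10 (limma) and, like Slc40a1, was lowest in LKO 1 and highest in CON 1. Adgre1 does not stand for the list. Of the 10 markers, 6 had a negative log2 fold change, against 71.6% of all genes, and 4 a positive one. The median of the 10 was -0.078, beside -0.23 for all genes, and 0.18 beside 0.01 after median-ratio scaling. The part of these markers in the result was not tested. In bulk tissue, fewer cells of a type and less RNA per cell cannot be told apart.

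HFE is an MHC class I-like protein that binds transferrin receptor 1 and takes part in hepcidin control. Hfe was at 12.55, 9.37 and 15.10 FPKM in LKO 1 to 3, against 19.29, 19.77 and 18.03 FPKM in CON 1 to 3. The 3 CON libraries lay close together, and each LKO library was below them. The mean was 12.3 ± 2.87 FPKM in LKO and 19.0 ± 0.90 FPKM in CON (SD, n = 3 each), and the log2 fold change was -0.61 (SE 0.20, 95% interval -1.08 to -0.14, limma adjusted p = 0.187). After median-ratio scaling the value was -0.33, and its 95% interval of -0.69 to 0.029 reached past 0. Without LKO 3 the adjusted p was 0.0299, and over all alternatives it ranged from 0.0299 to 0.486.

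Slc39a14 encodes ZIP14, the carrier through which hepatocytes take up iron not bound to transferrin. It was at 20.60, 20.05 and 51.25 FPKM in LKO 1 to 3, against 38.17, 40.24 and 41.92 FPKM in CON 1 to 3. LKO 1 and LKO 2 were below the CON range and LKO 3 was the highest of the 6 libraries, so the groups overlapped. The log2 fold change of -0.52 (SE 0.34, limma adjusted p = 0.369) was not larger than the spread within LKO. Without LKO 3 it was -0.95 and the adjusted p was 0.0166. The adjusted p of all its alternatives lay between 0.0166 and 0.760.

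Hamp, the gene of the hormone itself, varied as much within the groups as between them. It was at 1248, 1282 and 783 FPKM in LKO 1 to 3, against 1617, 1826 and 568 FPKM in CON 1 to 3. CON held both the 2 highest libraries and the lowest. The mean was 1105 ± 279 FPKM in LKO and 1337 ± 674 FPKM in CON (SD, n = 3 each). On the log2 scale the difference was -0.14 (SE 0.45, 95% interval -1.19 to 0.91, limma adjusted p = 0.860). That interval holds changes of more than a doubling in CON over LKO and nearly as large in the other direction, so no difference was detectable at this spread. The sign turned after median-ratio scaling (0.16) and without LKO 3, CON 1 or CON 2.

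Hamp2, the copy next to Hamp, is 93.0% identical to it over 417 aligned transcript positions, so reads can be shared and both values are uncertain. It was at 25.78, 16.38 and 7.06 FPKM in LKO 1 to 3, against 366.66, 16.56 and 7.26 FPKM in CON 1 to 3. CON 1 stood far above the other 5 libraries, where Hamp2 was 0.902% to 2.07% of Hamp, against 22.7% in CON 1. The sum of both genes was 1274, 1299 and 790 FPKM in LKO 1 to 3, against 1984, 1842 and 575 FPKM in CON 1 to 3. The groups overlapped for the sum as they did for Hamp.

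Bmp6, the endothelial ligand that raises hepcidin, was below the level for testing. It was at 0.40, 0.59 and 0.46 FPKM in LKO 1 to 3, against 1.43, 0.32 and 0.75 FPKM in CON 1 to 3. CON 1 was the highest library and CON 2 the lowest, and an exact two-sided permutation test gave p = 0.4. Sinusoidal endothelial markers, 10 of 10 tested and none at 0, summed to 66.6, 103 and 85.6 FPKM in LKO 1 to 3, against 143, 53.9 and 118 FPKM in CON 1 to 3. CON 1 was also highest and CON 2 lowest for this sum, and its part in the Bmp6 values was not tested.

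The transferrin receptors did not separate the groups. Tfr2, which hepatocytes use to sense iron-loaded transferrin, was at 239, 240 and 178 FPKM in LKO 1 to 3, against 191, 255 and 207 FPKM in CON 1 to 3. Its log2 fold change was 0.0056 (SE 0.21, 95% interval -0.47 to 0.48, limma adjusted p = 0.990), and its sign turned to -0.30 when the libraries were scaled to the same summed FPKM. Tfrc, which takes up transferrin and is low in iron-replete liver, was at 4.39, 2.20 and 4.42 FPKM in LKO 1 to 3, against 3.61, 3.73 and 3.93 FPKM in CON 1 to 3. LKO 2 was the lowest library, whereas LKO 1 and LKO 3 were above the CON range. Tfrc had a log2 fold change of -0.067 (SE 0.24, 95% interval -0.63 to 0.49, limma adjusted p = 0.875), and it was 0.16 after median-ratio scaling and 0.27 with the length trend removed.

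Red cell genes were looked at beside Tfrc, which erythroid precursors express strongly. Of 10 listed blood markers 8 were found, and their summed FPKM was 145, 335 and 228 in LKO 1 to 3, against 610, 275 and 92.1 in CON 1 to 3. Slc4a1, the anion exchanger of the red cell membrane, was at or below 0.05 FPKM in all 6 libraries. Alas2, in the blood list, whose enzyme makes haem in red cell precursors and whose 5′ UTR also held the element, was at 58.8, 61.3 and 55.8 FPKM in LKO 1 to 3, against 38.8, 40.8 and 49.9 FPKM in CON 1 to 3. Its LKO libraries were all above the CON libraries, as were those of 3.92% of all genes (log2 fold change 0.44, SE 0.17, limma adjusted p = 0.206). This held for 1 of the 5 tested blood markers, and 3 of the 5 had a negative log2 fold change, against 71.6% of all genes. The globin gene Hbb-bs, at 28.7, 85.5 and 59.5 FPKM in LKO 1 to 3 against 189, 82.2 and 16.2 FPKM in CON 1 to 3, overlapped.

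The ferritin chains form the shell in which cells store iron. Ftl1 was at 6321, 5898 and 5753 FPKM in LKO 1 to 3, against 4064, 4554 and 6059 FPKM in CON 1 to 3. The LKO libraries lay close together, and CON 3 lay among them. Its log2 fold change was 0.31 (SE 0.24, limma adjusted p = 0.429), with a 95% interval of -0.25 to 0.87 that spans 0. Quantile normalization turned the value to -0.30.

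Fth1, whose chain oxidises iron, was at 2071, 1799 and 1928 FPKM in LKO 1 to 3, against 2441, 1970 and 2128 FPKM in CON 1 to 3. The groups overlapped, since LKO 1 was above CON 2. The log2 fold change was -0.17 (SE 0.20, 95% interval -0.63 to 0.29, limma adjusted p = 0.600), and it was 0.13 after median-ratio scaling and 0.033 with the length trend removed.

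Ftl1 can share reads with near-identical pseudogenes. Ftl1-ps1 (99.6% identical over 910 positions) was at 40.6, 41.5 and 18.9 FPKM in LKO 1 to 3, against 8.54, 13.3 and 15.1 FPKM in CON 1 to 3. Ftl2-ps (98.7% over 552 positions) was at 276, 195 and 563 FPKM in LKO 1 to 3, against 521, 407 and 491 FPKM in CON 1 to 3. Ftl2-ps thus held 3.31% to 12.8% of the level of Ftl1. The sum of the 3 genes was 6369 ± 253 FPKM in LKO and 5378 ± 1046 FPKM in CON (SD, n = 3 each), and CON 3 at 6566 FPKM lay above LKO 2 at 6134 FPKM and LKO 3 at 6336 FPKM. The authors' handling of reads that fit several copies is not stated in the labels.

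**Figure D2:**
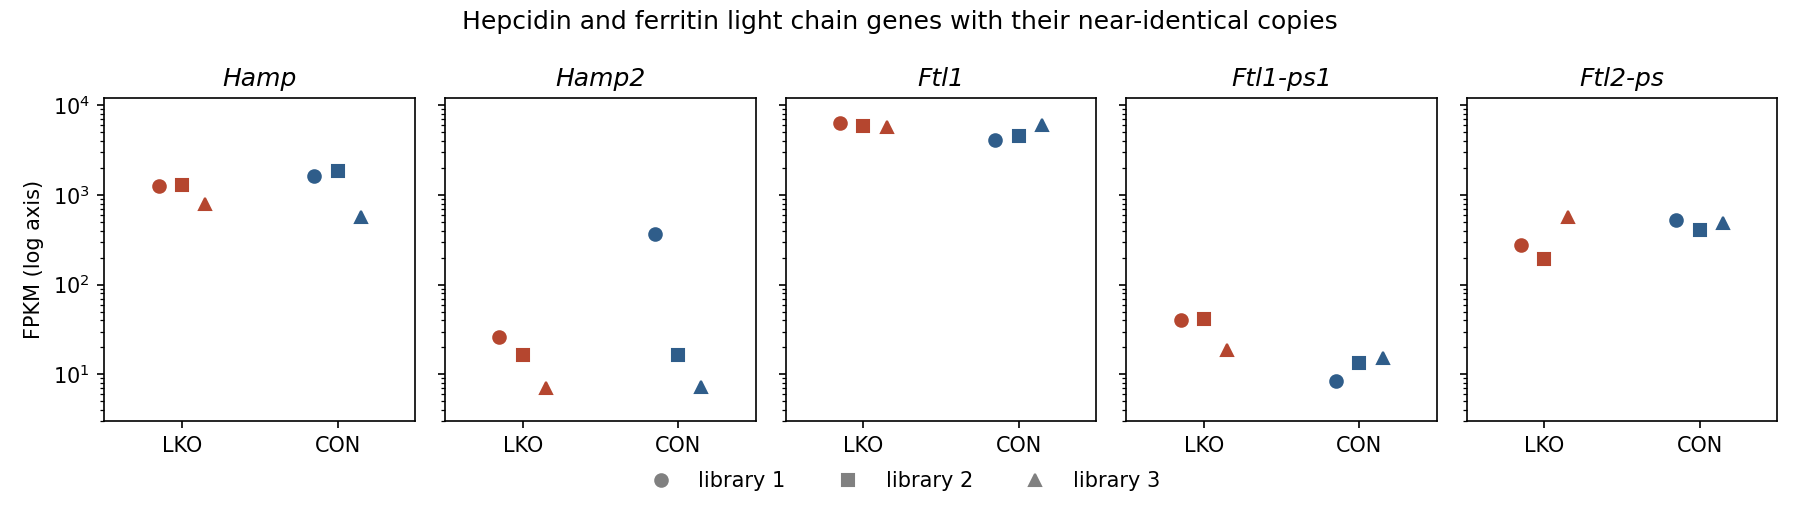
FPKM on a log axis of Hamp and Ftl1 and of their near-identical copies, 1 point per LKO or CON library with the library number as the symbol. Hamp2 is at 367 FPKM in CON 1 and at 7.06 to 25.8 FPKM in the other libraries, and Ftl1-ps1 is higher in each LKO library than in any CON library.

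Ratios of 2 genes within a library do not depend on how the library is scaled. The ratio of Ftl1 to Fth1 was 3.05, 3.28 and 2.98 in LKO 1 to 3, against 1.67, 2.31 and 2.85 in CON 1 to 3. The ratio of Slc40a1 to Fth1 was 0.00456, 0.00884 and 0.0104 in LKO 1 to 3, against 0.0166, 0.0142 and 0.0120 in CON 1 to 3. Neither ratio overlapped between the groups, the first higher and the second lower in LKO, with log2 differences of 0.48 and -0.92. In each case an exact two-sided permutation test gave p = 0.1, which is the lowest value possible with 3 libraries a group, and 0.25 after adjustment over the 5 ratios compared. A ratio shows unequal change and not which gene changed. The share of other gene pairs whose ratios do not overlap was not computed. Among single genes, 24.3% were lower and 3.92% higher in each LKO library than in any CON library. Slc40a1 by itself did not overlap, so its ratio to Fth1 is not a separate result. With the length trend removed, the log2 fold changes of Ftl1 and Fth1 were 0.25 and 0.033, a smaller gap than 0.31 against -0.17 without it.

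The other ratios overlapped. Tfrc to Tfr2 averaged 0.0175 ± 0.0079 in LKO and 0.0175 ± 0.0025 in CON (SD, n = 3 each), and Tfrc to Fth1 averaged 0.00188 ± 0.00057 in LKO and 0.00174 ± 0.00023 in CON. Hamp to Tfr2 was 5.22, 5.34 and 4.40 in LKO 1 to 3, against 8.48, 7.17 and 2.74 in CON 1 to 3, so that the LKO values lay inside the CON range. The exact p-values of these ratios were 0.8, 0.8 and 0.9.

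**Figure D3:**
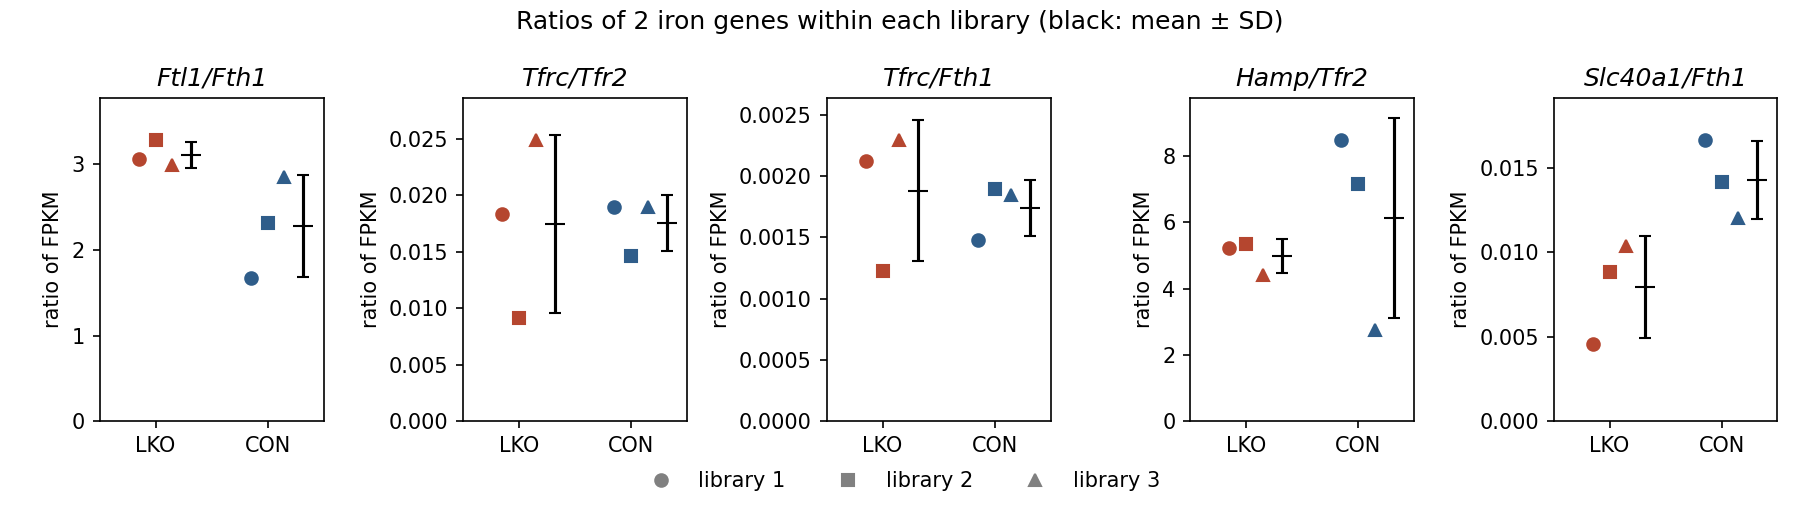
Ratio of the FPKM of 2 iron genes within each library (y axes, linear from 0), 1 point per LKO or CON library, with the mean ± SD of each group (n = 3) in black. Ftl1/Fth1 is 2.98 to 3.28 in LKO and 1.67 to 2.85 in CON, Slc40a1/Fth1 is lower in each LKO library than in any CON library, and the other ratios overlap.

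**Figure D4:**
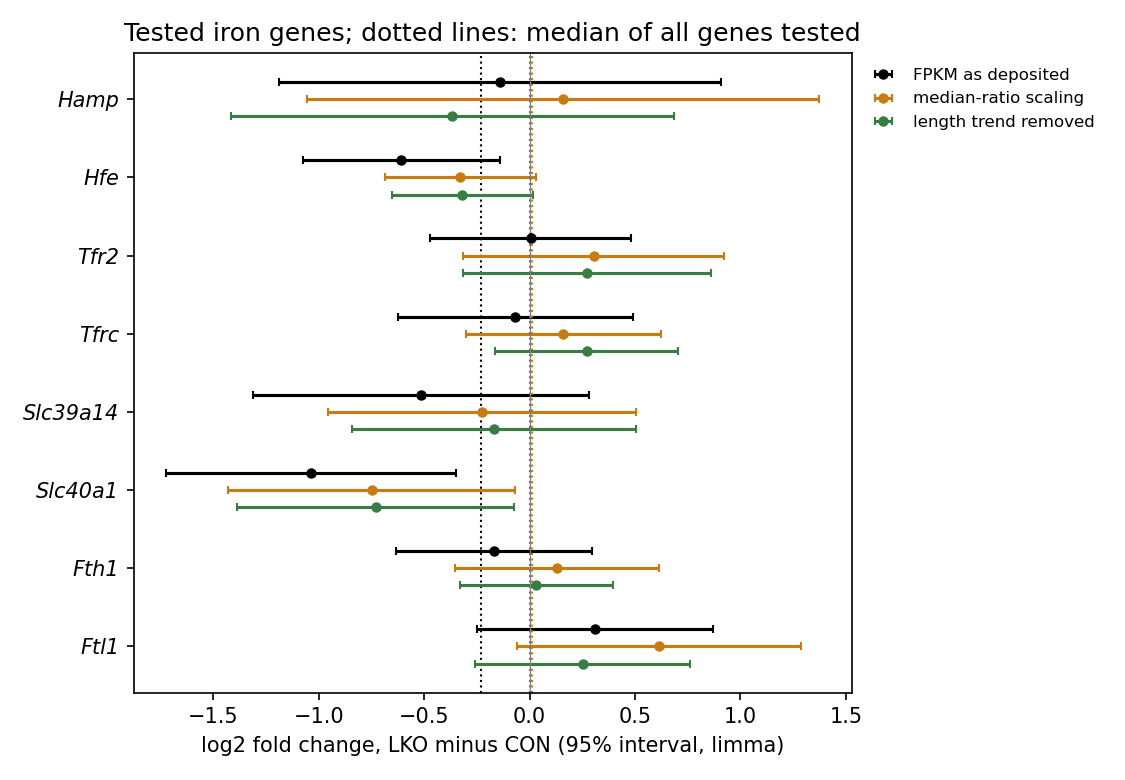
Log2 fold change of the 8 tested iron genes, LKO minus CON, with 95% intervals from limma, for FPKM as deposited, after median-ratio scaling and with the length trend removed, and the median of all genes as a dotted line of the same colour. Slc40a1 has an interval below 0 under each of the 3, Hfe only for FPKM as deposited, and the other 6 genes under none.

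The genes around the members were read from 9 lists of iron and haem genes, of which 79 were found and 70 tested. None passed an adjusted p of 0.05, and 18 of the 70 were lower and 0 higher at an unadjusted p under 0.05, against 18.9% and 3.25% of all genes. The LKO libraries were all below the CON libraries for 18 genes, against 24.3% of all genes, and above for 0, against 3.92%. Their median log2 fold change was -0.44 beside -0.23 for all genes, and -0.16 beside 0.01 after median-ratio scaling. With the length trend removed, the medians of the 9 lists ran from -0.33 (plasma carriers) to 0.025 (haem transport and breakdown). The median of all genes was then 0.0043. Iron regulatory proteins and ferritin turnover were at -0.042, haem synthesis at 0.013 and mitochondrial iron at -0.021. The gap to all genes was thus small for several lists. LKO 1 and LKO 2, but not LKO 3, lay below every CON library for 24 of the 70, against 22.3% of all genes. Without LKO 3, 23 passed lower and 1 higher, against 19% and 4.6% of all genes.

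Among 15 tested genes of BMP and SMAD signalling to hepcidin, 13 had a negative value, against 71.6% of all genes, and 10 after median-ratio scaling, against 48.9%. The median was -0.44, beside -0.23 for all genes, and -0.20 beside 0.011 after median-ratio scaling. With the length trend removed it was -0.077, beside 0.0043 for all genes. Tmprss6, the protease that cuts hemojuvelin and restrains hepcidin, was at 97.5, 82.5 and 109 FPKM in LKO 1 to 3, against 153, 133 and 131 FPKM in CON 1 to 3 (log2 fold change -0.53, SE 0.18, limma adjusted p = 0.189). The LKO libraries were all below the CON libraries for 6 of the 15, against 24.3% of all genes. Beside Tmprss6 these included the receptor gene Acvr1 (-0.68), the hemojuvelin partner Neo1 (-0.55) and the inhibitory SMAD gene Smad6 (-0.55). After median-ratio scaling these 4 were at -0.23, -0.45, -0.39 and -0.36. With the length trend removed they were at -0.25, -0.40, -0.18 and -0.29. The hemojuvelin gene, listed as Hfe2, was at 40.2, 34.4 and 28.8 FPKM in LKO 1 to 3, against 42.3, 36.4 and 39.9 FPKM in CON 1 to 3.

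BMP target genes had values of both signs. Id1 and Atoh8, named here after their values were seen, had positive log2 fold changes of 0.22 and 0.49, whereas Smad6 and Smad7 were at -0.55 and -0.39 (limma adjusted p of 0.631, 0.294, 0.212 and 0.380). Atoh8 was at 21.99, 18.0 and 10.6 FPKM in LKO 1 to 3, against 13.2, 10.04 and 10.6 FPKM in CON 1 to 3. LKO 1 and LKO 2 were above the CON range and LKO 3 was within it.

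Of 6 tested genes of IL-6 and STAT3 signalling, the inflammatory route to hepcidin, 6 had a negative value, against 71.6% of all genes, and 5 after median-ratio scaling, against 48.9%. Their median was -0.62, beside -0.23 for all genes, and -0.37 beside 0.011 after median-ratio scaling. With the length trend removed it was -0.26, beside 0.0043 for all genes. Stat3 was at 5.58, 6.07 and 19.1 FPKM in LKO 1 to 3, against 22.01, 20.8 and 20.9 FPKM in CON 1 to 3. Its groups did not overlap, but LKO 3 was close to the CON libraries (log2 fold change -1.18, SE 0.40, limma adjusted p = 0.189). The IL-6 receptor gene Il6ra was at 1.13, 1.94 and 9.01 FPKM in LKO 1 to 3, against 6.21, 9.63 and 7.05 FPKM in CON 1 to 3. Jak1 and Jak2, the kinases of this route, had log2 fold changes of -0.68 and -0.53, and Il6 was at or below 0.23 FPKM in all libraries. Without LKO 3, 5 of the 6 passed lower, where 19% of all genes did.

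The 11 listed inducible acute phase genes, targets of the same route, summed to 4764, 3541 and 5939 FPKM in LKO 1 to 3, against 5252, 16334 and 12593 FPKM in CON 1 to 3. CON 2 was the highest of the 6 libraries for this sum and for Hamp. CON 3 was second highest for the sum and lowest for Hamp, and CON 1 was within the LKO range for the sum and second highest for Hamp. The relation was not tested. Lcn2, an acute phase protein listed here among the plasma iron and haem carriers, was at 11.6, 8.72 and 11.3 FPKM in LKO 1 to 3. It was at 11.3, 286 and 46.8 FPKM in CON 1 to 3. Among erythroid and stress signals to hepcidin, Erfe was at or below 0.02 FPKM and Epo was listed at 0 in all libraries. Fgl1, a liver protein that antagonises BMP6, was at 538, 480 and 347 FPKM in LKO 1 to 3, against 249, 1560 and 594 FPKM in CON 1 to 3 (log2 fold change -0.45, limma adjusted p = 0.635). Gdf15, a stress cytokine, was at 40.6, 23.7 and 17.5 FPKM in LKO 1 to 3, against 24.4, 19.98 and 39.2 FPKM in CON 1 to 3 (log2 fold change -0.059, limma adjusted p = 0.927, and 0.23 after median-ratio scaling). Both genes overlapped between the groups.

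Of 7 tested genes that read cellular iron or turn over ferritin, 6 had a negative value, against 71.6% of all genes, and 5 after median-ratio scaling, against 48.9%. Aco1, which encodes iron regulatory protein 1, was at 24.5, 20.3 and 36.7 FPKM in LKO 1 to 3, against 60.9, 44.2 and 43.8 FPKM in CON 1 to 3. Its groups did not overlap (log2 fold change -0.87, SE 0.25, limma adjusted p = 0.179, and -0.58 after median-ratio scaling). Ncoa4, the receptor that carries ferritin to lysosomes, was at 8.27, 6.24 and 36.4 FPKM in LKO 1 to 3, against 39.3, 33.1 and 32.3 FPKM in CON 1 to 3. LKO 1 and LKO 2 were far below the CON range and LKO 3 was within it. Ireb2, which encodes iron regulatory protein 2, and Fbxl5, which marks it for degradation, had log2 fold changes of -0.63 and -0.36 (limma adjusted p of 0.221 and 0.322), and -0.36 and -0.10 after median-ratio scaling. Pcbp1, an iron chaperone that loads ferritin, was the gene of this list with a positive value, at 102.7 ± 15.3 FPKM in LKO and 94.6 ± 12.9 FPKM in CON (SD, n = 3 each).

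Among 5 tested plasma carriers, transferrin (Trf) averaged 10771 ± 1438 FPKM in LKO and 10773 ± 1412 FPKM in CON (SD, n = 3 each). The log2 fold change of Trf was -0.0015 (95% interval -0.58 to 0.58, limma adjusted p = 0.998). Cp, the ferroxidase ceruloplasmin that works with ferroportin, was at 265, 216 and 498 FPKM in LKO 1 to 3, against 482, 530 and 446 FPKM in CON 1 to 3. The haemopexin gene Hpx and the haptoglobin gene Hp, whose products clear free haem and haemoglobin, had log2 fold changes of -0.46 and -0.35. Both overlapped between the groups (limma adjusted p of 0.445 and 0.509), and were at -0.16 and -0.050 after median-ratio scaling. CON 2 was the highest library for both, and CON 1 was below every LKO library. Among uptake genes, the endosomal iron reductase gene Steap3 was at 3.51, 2.55 and 3.46 FPKM in LKO 1 to 3, against 9.35, 4.95 and 4.77 FPKM in CON 1 to 3. The groups of Steap3 did not overlap (log2 fold change -0.77, SE 0.26, limma adjusted p = 0.190). The importers Slc11a2 and Slc39a8 were at -0.74 and -0.49, with overlapping groups (limma adjusted p of 0.231 and 0.242).

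In haem synthesis, 2 of 8 tested genes were lower at an unadjusted p under 0.05, against 18.9% of all genes. Cpox, coproporphyrinogen oxidase, was at 41.1, 30.7 and 72.7 FPKM in LKO 1 to 3, against 103, 84.1 and 83.3 FPKM in CON 1 to 3 (log2 fold change -0.98, limma adjusted p = 0.183). Fech, which inserts iron into the porphyrin ring, had a log2 fold change of -0.82 (adjusted p = 0.186). The other 6 did not reach it, with Alas1, the rate-limiting step in liver, at 393, 480 and 1436 FPKM in LKO 1 to 3, against 859, 834 and 918 FPKM in CON 1 to 3. In haem breakdown, Hmox1 was at 13.92, 14.81 and 17.29 FPKM in LKO 1 to 3, against 17.69, 17.63 and 41.96 FPKM in CON 1 to 3 (limma adjusted p = 0.297). CON 3 stood far above the rest, and CON 1 and CON 2 were just above LKO 3. Of 12 tested genes of mitochondrial iron use, 4 were lower at an unadjusted p under 0.05, against 18.9% of all genes: Abcb10 (-0.76), Nfu1 (-0.78), the mitochondrial iron importer Slc25a37 (-0.64) and the cysteine desulphurase gene Nfs1 (-0.79). Their adjusted p-values (limma) lay between 0.176 and 0.212. The median of this list was -0.26, beside -0.23 for all genes, and 0.0081 beside 0.011 after median-ratio scaling.

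**Figure D5:**
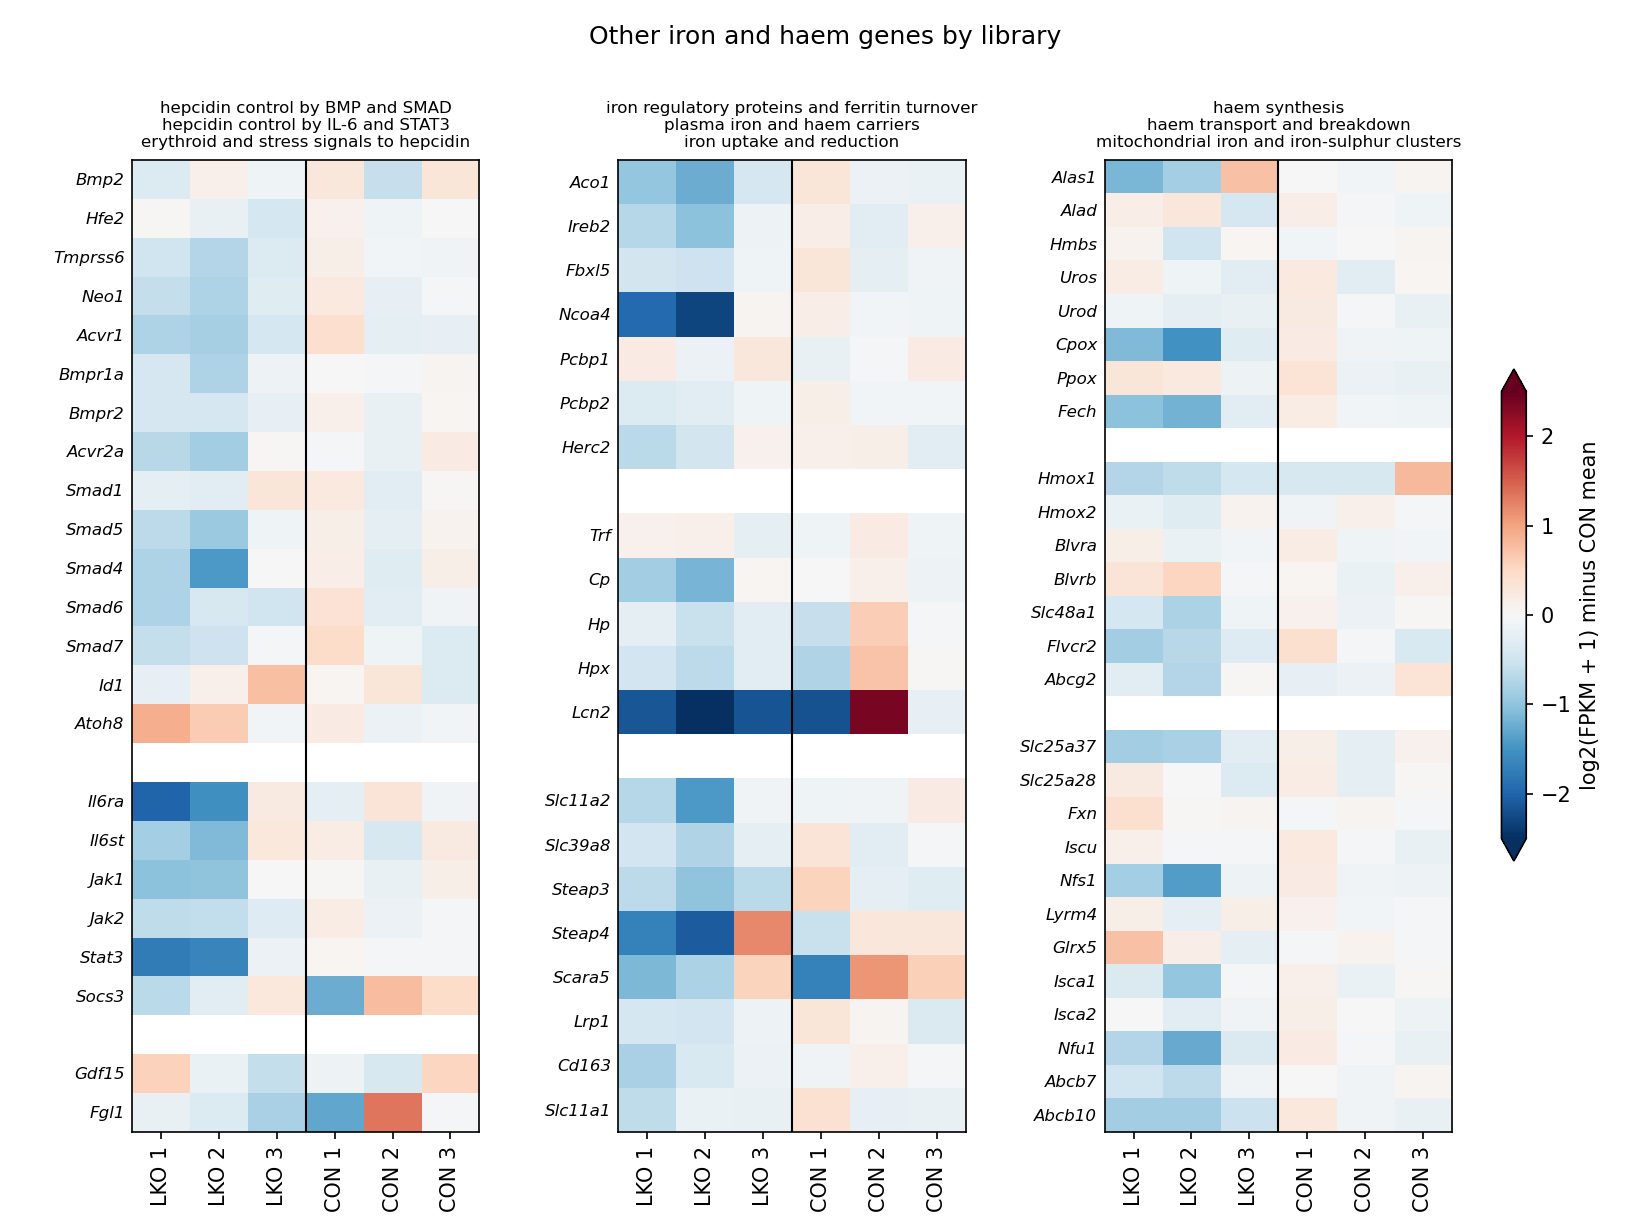
Log2(FPKM + 1) of 70 tested iron and haem genes minus the mean of the CON libraries (colour scale, cut at the ends), with LKO 1 to 3 left of the line and CON 1 to 3 right of it, grouped by list. Many rows, such as Stat3, Ncoa4, Cpox and Nfs1, are low in LKO 1 and LKO 2 and closer to CON in LKO 3.

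As a description, the genes most alike to 3 members over the 6 libraries were taken from 5995 named genes whose mean FPKM reached 5. The measure was Pearson r of log2(FPKM + 1) over 6 libraries, between which depth, scale and group also differ, and with so many candidates high values are common. Nearest to Hamp were Tmem254a (0.96), Cyp4f15 (0.95) and Myl12b (0.92). Nearest to Tfrc were Tars, Pomp and Hnrnpab (0.996, 0.995 and 0.990), each lowest in LKO 2. Nearest to Slc40a1 were Dbt, Slc16a7 and Ttpa (each 0.99), each lowest in LKO 1 and highest in CON 1.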

How the data were processed

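Liver RNA of 6 libraries was measured by RNA-seq. The deposited table holds an FPKM value for each gene in each library. The authors used HISAT2, StringTie and build mm9, per the submitters' processing notes. The sources used here give no versions, options or strand. The lengths listed for 9 of 9 members equal those of GENCODE M21, which annotates GRCm38 and not mm9. The build behind the deposited values is therefore uncertain. Of 56536 lines, 2 held no values. Whole reads could not be recovered: 19.1% to 21.1% of low values of FPKM times length lay within 0.1 of a whole multiple of 1 step, and 20% would at random, so no count model was fitted and the depth is unknown. The gene length given beside the deposited FPKM is another column of the file, per the file headers. The 11104 genes whose mean FPKM reached 1 were taken to log2(FPKM + 1) and tested with limma 3.58.1 in R 4.3.3 (eBayes with trend, group as the only term, two-sided, Benjamini-Hochberg over all tested genes). The pseudocount of 1 understates the change of low genes. The steps were tested on simulated data. Ratios, Bmp6 and Cd36 were tested by exact permutation of the libraries. Alternatives were another pseudocount, other filters and scalings, removal of the length trend, no variance trend, a block for library number and each library left out. Named were the members, Cd36, Hamp2, up to 4 genes of the smallest unadjusted p per iron list, and the nearest genes to 3 members; some of these are not described. Alas2, Hbb-bs, Alb and Adgre1 are from the marker lists. Hfe2, Pcbp1, Smad7, Id1, Atoh8, Il6, Trf, Erfe, Epo, Slc4a1, Gm44002 and the ferritin pseudogenes fall outside this rule and were chosen after their values were seen. The members and lists were chosen with earlier results of these data known.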

Additional observations from a re-analysis of the deposited data

How the results depend on the processing

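Without LKO 1, LKO 2, LKO 3, CON 1, CON 2 or CON 3 in turn, the number of genes that passed lower ranged from 0 to 2115 and of those higher from 0 to 511. Both highest counts were without LKO 3. In that fit the groups also differ in their trend with gene length, and leaving out LKO 3 was not combined with removing it. The count lower was 0 (limma, at an unadjusted p under 0.05 2115, 2530, 1344, 941 and 2234) with a pseudocount of 0.1, with no filter, with a filter at a mean FPKM of 5, with the length trend removed and with the replicate block, and 2 with libraries scaled to the same summed FPKM, against 1 as reported. The library numbers are no stated pairing. Deviations of same-numbered libraries correlated at -0.046, 0.17 and 0.070 for numbers 1, 2 and 3. Those of differently numbered libraries correlated at -0.16 to 0.055, so numbers 2 and 3 gave the highest values. All were small, and whether the numbers mark a pairing was not tested. Under the replicate block Slc40a1 kept -1.03 with a limma adjusted p of 0.191. Signs of the log2 fold change turned for Hamp (0.16) and Fth1 (0.13) under median-ratio scaling, for Fth1 with the length trend removed (0.033), for Tfrc under median-ratio scaling (0.16), quantile normalization (0.16) and length trend removal (0.27), for Tfr2 with the same summed FPKM (-0.30) and for Ftl1 under quantile normalization (-0.30). The cause was not tested. With each library left out in turn, the log2 fold change ranged from -0.67 to 0.17 for Hamp, -0.20 to 0.18 for Tfrc, -0.084 to 0.15 for Tfr2, -1.26 to -0.75 for Slc40a1, -0.76 to -0.44 for Hfe, -0.95 to -0.29 for Slc39a14, -0.24 to -0.086 for Fth1, 0.19 to 0.48 for Ftl1 and -0.48 to -0.037 for Bmp6. The log2 difference of ratios ranged from 0.27 to 0.66 for Ftl1/Fth1, -1.16 to -0.56 for Slc40a1/Fth1, -0.42 to 0.30 for Tfrc/Tfr2, -0.10 to 0.35 for Tfrc/Fth1 and -0.65 to 0.17 for Hamp/Tfr2. Depth in reads is unknown, so counting error could not be given.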
